A study of Mus musculus with 12 samples.

Results

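The T cell receptor complex and its first signalling enzymes were described by 14 probe sets of 10 genes. The rule used gene names and no measured value, but earlier results of these data were known when the members were chosen. The genes are the CD3 chains Cd3d, Cd3e and Cd3g, the zeta chain Cd247, the coreceptor genes Cd4 and Cd8b1, the kinases Lck and Zap70, the adaptor Lat and the inhibitory receptor Cd5. The deposited Affymetrix table held 45101 probe sets, and the 18271 with a log2 value of 5 or more on 3 or more of the 12 arrays were tested. Of the 14 probe sets 13 passed that filter. Expression was measured in CD4+ CD25+ spleen T cells of 4 groups, with 3 arrays in each. Regulatory T (Treg) cells, which restrain immune responses, were sorted directly from spleen. Effector cells were sorted as activated CD4+ T cells after unfractionated spleen cells had been cultured with anti-CD3 for 48 hours. Each population came from normal C57BL/6 mice and from a line named C57BL/6-2Rbeta-WT/thymus, called transgenic here. The transgenic mice had been bred to IL-2Rbeta deficiency, so their peripheral T cells have a defective receptor for IL-2, a T cell growth factor. The labels tie the transgenic receptor to the thymus. Which promoter drives it was not stated there. RNA for an effector array came from 1 mouse aged 9 to 15 weeks. Treg RNA was pooled from 3 to 15 mice per array, aged 7 to 33 weeks, and the oldest pool was transgenic Treg array 1. C57BL/6 Treg arrays 1 to 3 held 8, 8 and 15 mice of 12, 12 and 10 weeks. Transgenic Treg arrays held 4, 8 and 3 mice of 33, 13 and 7 to 16 weeks. Strain in Treg cells was thus partly confounded with age and pool size. The CD25 gate is also met by Treg cells present in the cultures, so it does not by itself separate the populations. The comparison between strains asks which of these transcripts differ with the receptor defect in each population. It cannot by itself assign a change to IL-2.

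The T cell receptor recognises peptide on MHC molecules but cannot signal by itself. It is carried to the surface with the CD3 chains and the zeta chain, whose cytoplasmic tails are phosphorylated by LCK, a kinase held near the receptor by CD4 or CD8. ZAP-70 then binds the phosphorylated tails and phosphorylates LAT, a membrane adaptor on which the downstream enzymes assemble, while CD5 dampens the signal. Anti-CD3 binds this complex directly, so the effector cells had been triggered through the molecules described here.

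Array medians lay between 3.08 and 3.27, but the lowest values were 0.296 to 0.325 on effector arrays and 0.942 to 0.957 on Treg arrays. Both populations may therefore have been normalized apart, and levels set across them can carry a difference in scale. For transgenic effector array 3 the labels disagree: the purification entry is that of fresh spleen, the title and source are those of cultured effector cells. The arrays also fell into 2 states in 8 probe sets with no gene name here, with 5 of 6 transgenic arrays but 1 of 6 C57BL/6 arrays in the same state. Purity after the sort was 99 to 99.9% on the 11 arrays for which it is given. Other probe sets carry no gene name in the sources used here, so the disrupted receptor gene, Treg markers and the rest of the pathway were not analysed here. In bulk RNA, fewer cells of a type and less RNA per cell cannot be told apart.

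**Figure D1:**
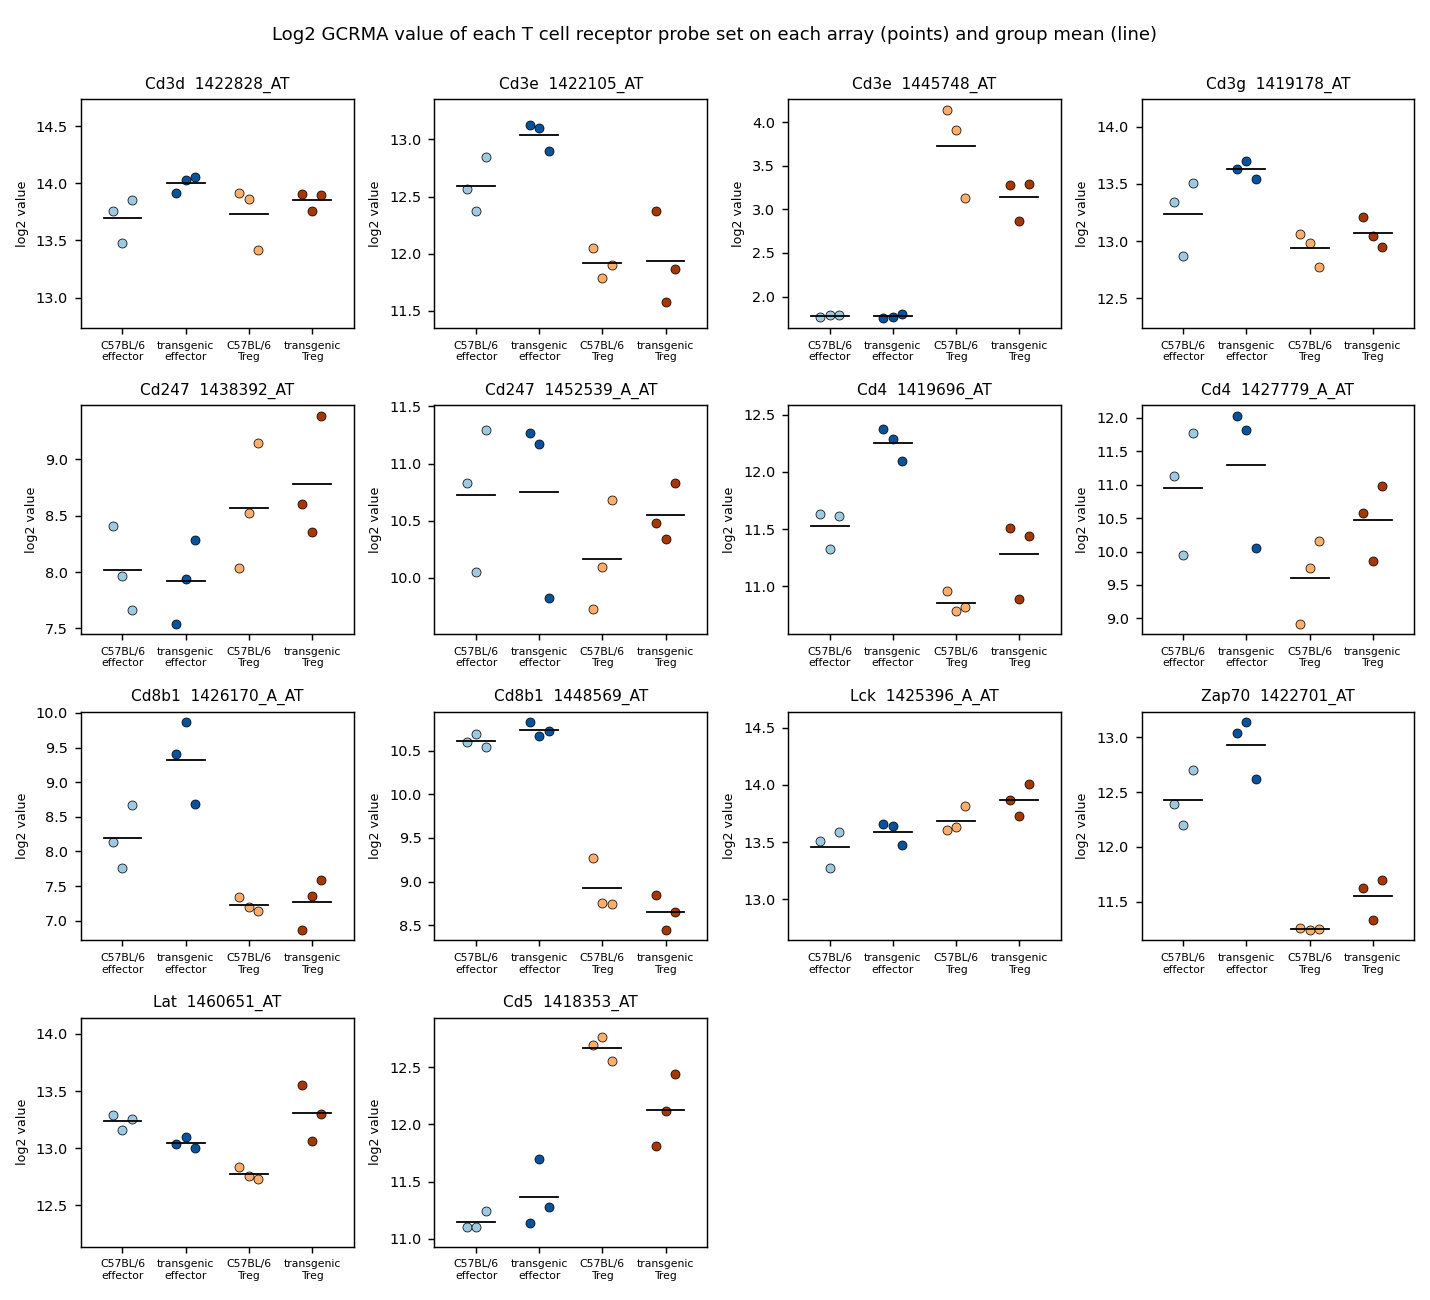
Log2 GCRMA values (y axis) of the 14 probe sets, 1 panel each, by group (x axis), with a point for each array and a line at the group mean. Each panel spans at least 2 log2 units. Effector and Treg arrays separate in Cd5, Zap70 and both Cd8b1 panels, while the strains mostly lie close together. They also separate in Cd3e 1445748_AT, which lies close to the floor and was not tested.

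Of the strain changes of the receptor complex, 1 passed the test without pairing of arrays, a rise of Cd4 in transgenic effector cells. The next by adjusted p were Lat in Treg cells, at 0.53 (limma adjusted p = 0.0778), and in effector cells Cd8b1 1426170_A_AT at 1.13 (0.0948) and Zap70 at 0.50 (0.169). In Treg cells 0 of 13 probe sets were called between strains (limma, Benjamini-Hochberg adjusted p under 0.05 over all tested probe sets), beside 1.19% of all tested probe sets, and 3 of 13 had an unadjusted p under 0.05. With the same-numbered Treg arrays as a replicate block, a pairing read from these data, 1 of 13 was called, beside 1.94% of all tested. It was Lat (limma adjusted p = 0.0327). In effector cells, where arrays were not paired, 5 of 13 had an unadjusted p under 0.05 and 1 of 13 was called, beside 2.99% of all tested probe sets (1.92% higher and 1.08% lower). The median strain change of the 13 was 0.18 on the log2 scale in Treg cells, beside 0.028 over all tested probe sets. In effector cells it was 0.30, beside -0.0053. The strain change was above 0 in 11 of 13 probe sets in each population, where 54.5% (Treg) and 48.8% (effector) of all tested probe sets were. The members are not independent, since all were read on the same arrays and Cd247, Cd4 and Cd8b1 each enter with more than 1 probe set. No test of these counts was made. With the beta-actin covariate described below, Cd3e, 1 probe set of Cd247 and 1 of Cd8b1 turned below 0 in Treg cells. In effector cells 1 probe set of Cd247 did. The arrays of both strains did not overlap in 6 of 13 probe sets in effector cells, 5 higher and 1 lower in transgenic mice, beside 12.7% and 10.1% of all tested. In Treg cells they did not overlap in 3 of 13, of which 2 were higher and 1 lower, beside 7.65% and 7.18%.

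**Figure D2:**
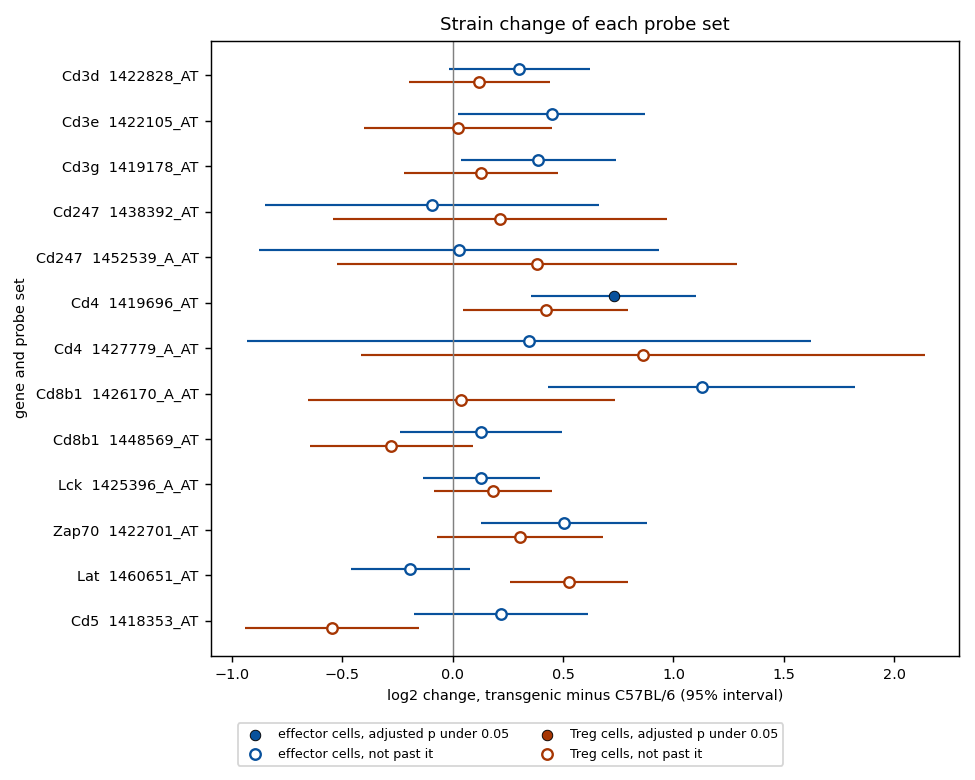
Strain change (x axis, log2, transgenic minus C57BL/6) of the 13 tested probe sets (y axis) in effector and Treg cells, with limma 95% intervals and filled points where the adjusted p was under 0.05. The filled point is Cd4 1419696_AT in effector cells at 0.73, and Lat lies on opposite sides of 0 in the populations, at 0.53 and -0.19.

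The CD3 chains pair with each other inside the receptor, delta and gamma each with epsilon. Cd3d (1422828_AT) read 13.76, 13.48 and 13.85 on C57BL/6 effector arrays 1 to 3 and 13.92, 14.03 and 14.05 on the transgenic ones. Cd3g (1419178_AT) read 13.34, 12.87 and 13.51 against 13.63, 13.70 and 13.54. For both, all transgenic effector arrays lay above all C57BL/6 ones. Cd3e (1422105_AT) read 12.56, 12.37 and 12.84 in C57BL/6 and 13.12, 13.10 and 12.90 in transgenic effector cells, again without overlap. The log2 changes were 0.30 for Cd3d, 0.39 for Cd3g and 0.45 for Cd3e, with standard errors of 0.15, 0.16 and 0.19, and none passed the test (limma adjusted p = 0.353, 0.268 and 0.295). In Treg cells the strains overlapped in all 3 genes. Cd3d was at 13.73 ± 0.27 in C57BL/6 and 13.85 ± 0.08 in transgenic Treg cells, Cd3g at 12.94 ± 0.15 and 13.07 ± 0.13, and Cd3e at 11.91 ± 0.13 and 11.94 ± 0.40 (log2, SD, n = 3). Their 95% intervals for the strain change in Treg cells ran from -0.40 (Cd3e) to 0.48 (Cd3g), which leaves room for changes of that size. The other Cd3e probe set, 1445748_AT, did not reach a log2 value of 5 on any array. Its effector values were 1.76 to 1.80 and its Treg values 2.86 to 4.14, without overlap but close to the floor, and it was not tested.

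The 3 CD3 genes follow each other without another gene between them in the RefSeq gene table, and the start sites of Cd3g and Cd3d lie 1355 bases apart and point away from each other. Their promoter windows are shown because the effector arrays of these 3 neighbours all separated by strain, and those of Lat and Cd5 because their Treg arrays separated in opposite directions. The Treg arrays of Zap70 also separated by strain, and its windows are not shown. None of these genes passed the test of strain change without pairing of arrays. The sequences are from RefSeq (GRCm38.p6), 250 bases before to 50 after the start site, 5′ to 3′ on the gene's strand. Capitals mark AGGAAG or its reverse complement CTTCCT, which hold the GGAA core bound by ETS family factors.
Cd3g, chr9:44980382-44980681, minus strand: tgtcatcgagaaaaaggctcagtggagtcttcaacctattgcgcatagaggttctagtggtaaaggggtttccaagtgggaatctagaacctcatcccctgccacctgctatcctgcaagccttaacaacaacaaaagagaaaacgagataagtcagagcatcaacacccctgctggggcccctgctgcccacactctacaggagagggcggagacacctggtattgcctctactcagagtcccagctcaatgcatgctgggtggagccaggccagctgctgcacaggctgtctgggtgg
Cd3d, chr9:44981536-44981835, plus strand: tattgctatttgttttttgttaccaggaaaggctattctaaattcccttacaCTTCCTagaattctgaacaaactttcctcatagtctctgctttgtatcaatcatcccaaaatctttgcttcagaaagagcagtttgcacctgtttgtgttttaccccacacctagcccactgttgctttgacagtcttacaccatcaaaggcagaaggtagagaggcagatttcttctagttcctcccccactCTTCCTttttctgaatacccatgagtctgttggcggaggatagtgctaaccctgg
Cd3e, chr9:45009562-45009861, minus strand: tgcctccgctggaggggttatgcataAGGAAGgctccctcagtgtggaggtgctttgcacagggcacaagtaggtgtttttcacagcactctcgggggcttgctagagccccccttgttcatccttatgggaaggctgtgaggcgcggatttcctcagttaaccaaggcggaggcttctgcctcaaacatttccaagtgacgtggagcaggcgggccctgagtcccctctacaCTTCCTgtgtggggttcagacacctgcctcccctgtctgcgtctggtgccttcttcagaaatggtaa
Lat, chr7:126369519-126369818, minus strand: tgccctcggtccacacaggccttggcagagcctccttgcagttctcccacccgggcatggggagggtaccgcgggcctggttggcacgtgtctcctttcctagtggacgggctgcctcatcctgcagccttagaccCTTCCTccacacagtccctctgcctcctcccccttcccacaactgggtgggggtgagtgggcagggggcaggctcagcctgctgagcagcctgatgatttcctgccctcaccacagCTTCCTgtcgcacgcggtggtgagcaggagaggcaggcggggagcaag
Cd5, chr19:10738925-10739224, minus strand: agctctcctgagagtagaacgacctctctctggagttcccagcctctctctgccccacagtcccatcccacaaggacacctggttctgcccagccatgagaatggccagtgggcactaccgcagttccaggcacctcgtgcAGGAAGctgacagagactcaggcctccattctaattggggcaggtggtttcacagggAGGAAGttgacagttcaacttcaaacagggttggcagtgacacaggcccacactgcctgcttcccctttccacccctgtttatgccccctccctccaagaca

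The RefSeq promoter table matched 8 of the 10 genes with 11 windows, and Cd4 and Cd8b1 had none. AGGAAG was found on either strand in 9 of the 11 windows and 7 of the 8 genes, with 2 matches each in the Cd3d, Cd3e, Lat and Cd5 windows shown and 0 in that of Cd3g. Of all 32851 windows of this length 35.4% held it. The E-box CANNTG was in 11 of 11 windows (72.3% of all), with 4 matches in Cd3g. The RUNX core TGTGGT was in 3 of 11 (16.8% of all), among them the Lat window, and the TCF core CTTTGA was in 3 of 11 (16.0% of all), with 2 matches in Cd3d. TATAAA was in 0 of 11, beside 13.6% of all windows. Each motif was searched on both strands and without regard to the others, so matches may overlap. These are matches of letters in a window and say nothing of binding.

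The zeta chain, encoded by Cd247, carries most of the phosphorylation motifs of the complex. Its probe set 1438392_AT read 8.41, 7.97 and 7.67 on C57BL/6 effector arrays and 7.54, 7.94 and 8.28 on transgenic ones. The Treg values were 8.04, 8.52 and 9.14 in C57BL/6 and 8.60, 8.36 and 9.38 in transgenic mice. The strains overlapped in both populations, and the log2 changes were -0.092 (effector) and 0.22 (Treg), with a standard error of 0.34 in each. The second probe set, 1452539_A_AT, read 10.83, 10.05 and 11.29 on C57BL/6 and 11.26, 11.17 and 9.83 on transgenic effector arrays. On Treg arrays it read 9.72, 10.10 and 10.69 in C57BL/6 and 10.48, 10.34 and 10.83 in transgenic mice. It changed by 0.030 and 0.38 with a standard error of 0.41, so that a strain change of up to 1.29 (Treg) or 0.93 (effector) lies inside its 95% interval.

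CD4 binds MHC class II and brings LCK to the receptor. Probe set 1419696_AT of Cd4 read 11.63, 11.33 and 11.61 on C57BL/6 effector arrays and 12.38, 12.29 and 12.09 on transgenic ones, without overlap. This was a rise of 0.73 on the log2 scale, or 1.66-fold, and its standard error was 0.17 (limma adjusted p = 0.0440). The call lay close to the threshold. It was lost in 14 of 23 alternatives, with an adjusted p of up to 0.194, and was lost without any of the 6 effector arrays (adjusted p 0.0511 to 0.194) and with the replicate block (0.0577), while the log2 change stayed between 0.63 and 0.81. In Treg cells the same probe set read 10.96, 10.79 and 10.82 in C57BL/6 and 11.51, 10.89 and 11.44 in transgenic mice. Here transgenic array 2 fell inside the C57BL/6 range, and the change of 0.42 did not pass the test (limma adjusted p = 0.438). The strain change in Treg minus that in effector cells was -0.31, with a 95% interval of -0.84 to 0.22.

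Probe set 1427779_A_AT of Cd4 spread far more widely. It read 11.13, 9.95 and 11.77 on C57BL/6 and 12.03, 11.81 and 10.05 on transgenic effector arrays, and 8.92, 9.76 and 10.15 on C57BL/6 and 10.58, 9.86 and 10.98 on transgenic Treg arrays. The low effector arrays, C57BL/6 array 2 and transgenic array 3, were also the low ones for Cd247 1452539_A_AT. The strain changes of 0.35 in effector and 0.86 in Treg cells did not pass the test (standard error 0.58, limma adjusted p = 0.895 and 0.775). The same arrays stood apart in a measure of RNA integrity or labelling, the beta-actin control signal at the 3′ end minus that at the 5′ end. This difference was 0.80 on C57BL/6 effector array 2 and 0.82 on transgenic effector array 3, against 0.36 to 0.45 on the other 4 effector arrays. On Treg arrays it was 0.88, 0.80 and 0.56 in C57BL/6 and 0.61, 0.68 and 0.50 in transgenic mice.

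**Figure D3:**
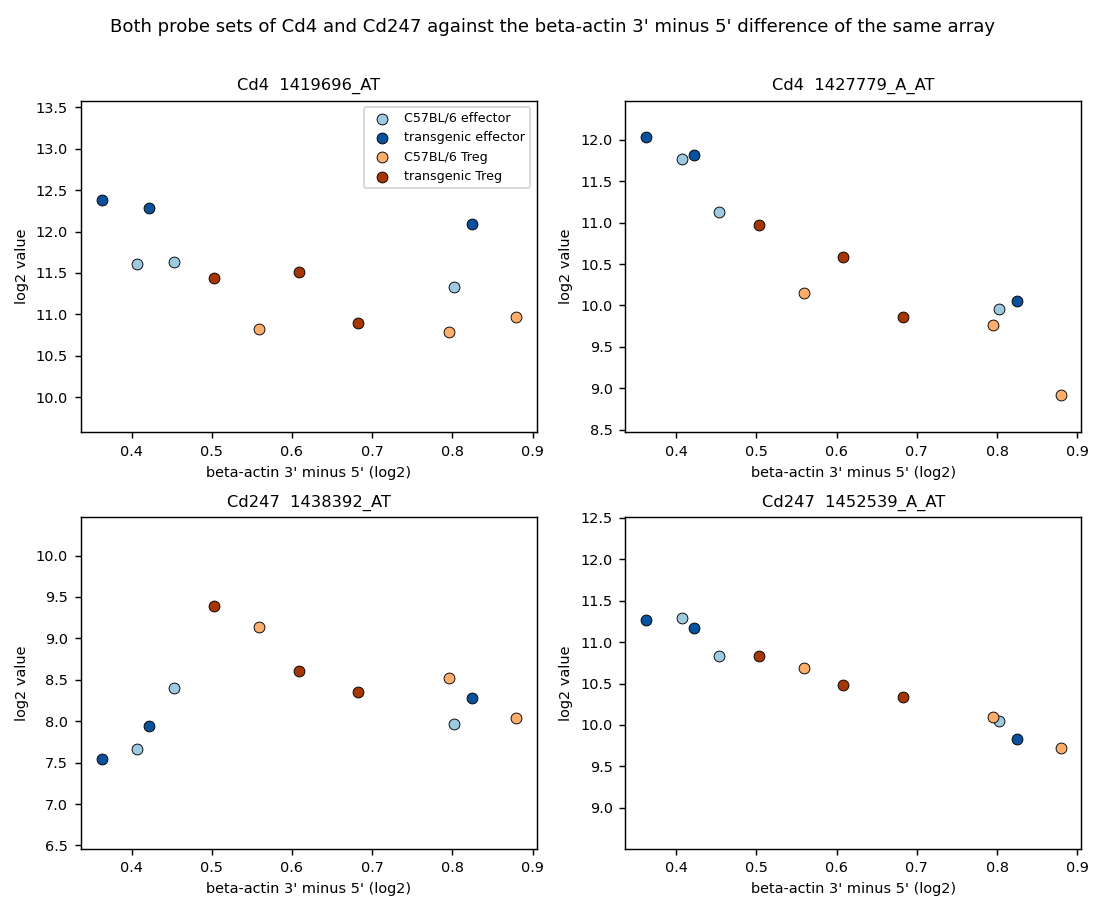
Log2 value (y axis, a span of 4 units in each panel) of both probe sets of Cd4 and of Cd247 against the beta-actin 3′ minus 5′ difference (x axis, log2) of the same array, with colour for the group. Values of Cd4 1427779_A_AT run from 12.03 down to 8.92 and those of Cd247 1452539_A_AT from 11.29 down to 9.72 as the actin difference increases, a trend less apparent in the other probe set of each gene.

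With the actin difference as a covariate, an alternative chosen after these values were seen, the standard error of the effector strain change fell from 0.58 to 0.19 for Cd4 1427779_A_AT and from 0.41 to 0.12 for Cd247 1452539_A_AT. The strain change of Cd4 1427779_A_AT was then 0.27 (effector) and 0.25 (Treg), and that of Cd247 1452539_A_AT was -0.023 and -0.054, none of them called. For Cd4 1419696_AT the covariate moved the effector change to 0.72 and its standard error to 0.15 (limma adjusted p = 0.0246). C57BL/6 effector array 2 and transgenic effector array 3 both read lowest in their groups in 9 of the 13 probe sets, beside 21.8% of all tested probe sets.

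CD8 beta is part of the coreceptor of cytotoxic T cells and is normally not carried by mature CD4+ T cells, yet both Cd8b1 probe sets lay above a log2 value of 5 on all 12 arrays. Probe set 1426170_A_AT read 8.14, 7.76 and 8.67 on C57BL/6 effector arrays and 9.41, 9.87 and 8.69 on transgenic ones. The strains did not overlap, although by a narrow margin, and the rise of 1.13 (standard error 0.32) did not pass the test (limma adjusted p = 0.0948). It was called in 3 of 23 alternatives, with a limma adjusted p of up to 0.349 in the others. The 3 were without transgenic effector array 3 (1.44, limma adjusted p = 0.0278), with array weights and with the actin covariate. None of the other normalizations gave a call. Probe set 1448569_AT did not share this change, at 10.60, 10.69 and 10.54 in C57BL/6 and 10.83, 10.66 and 10.72 in transgenic effector cells, a log2 change of 0.13 (95% interval -0.24 to 0.50). C57BL/6 Treg cells had 7.23 ± 0.10 and transgenic Treg cells 7.27 ± 0.37 of 1426170_A_AT (log2, SD, n = 3). For 1448569_AT these means were 8.93 ± 0.30 and 8.65 ± 0.20. Other markers of CD8+ T cells were not analysed here, so the part of such cells in these values was not tested.

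LCK starts the signal and ZAP-70 passes it on. Lck (1425396_A_AT) showed a narrow range. It read 13.51, 13.28 and 13.59 on C57BL/6 and 13.66, 13.64 and 13.47 on transgenic effector arrays, and 13.60, 13.63 and 13.82 on C57BL/6 and 13.87, 13.72 and 14.01 on transgenic Treg arrays. The 95% intervals of its strain change were -0.13 to 0.40 in effector and -0.083 to 0.45 in Treg cells, so the strain change of Lck was bounded more tightly than that of most members. Zap70 (1422701_AT) read 12.39, 12.20 and 12.70 in C57BL/6 and 13.04, 13.14 and 12.62 in transgenic effector cells, where transgenic array 3 fell among the C57BL/6 arrays. In Treg cells the C57BL/6 arrays were nearly equal, at 11.26, 11.24 and 11.25, and the transgenic ones all lay higher, at 11.63, 11.33 and 11.70. The log2 changes, 0.50 for effector and 0.30 for Treg cells, did not pass the test (limma adjusted p = 0.169 and 0.694).

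LAT is the scaffold phosphorylated by ZAP-70. Lat (1460651_AT) read 12.84, 12.76 and 12.73 on C57BL/6 Treg arrays and 13.55, 13.06 and 13.30 on transgenic ones. In effector cells the order was the opposite, at 13.29, 13.16 and 13.26 in C57BL/6 and 13.04, 13.10 and 13.00 in transgenic mice. The strains did not overlap in either population. The changes were 0.53 (standard error 0.12, limma adjusted p = 0.0778) in Treg and -0.19 (limma adjusted p = 0.530) in effector cells. Their difference, 0.72 with a standard error of 0.17, did not pass the test either (limma adjusted p = 0.0606). No label pairs the Treg arrays, and same-numbered arrays were taken as paired from their correlated deviations in these same data. The correlation was 0.102 for array 2 of each strain. With that pairing as a Treg replicate block, both values passed (limma adjusted p = 0.0327 for the Treg change and 0.0314 for the difference). The block was chosen after seeing the data, so those passes are not independent support. Without transgenic Treg array 2 the values were 0.65 and 0.84 (limma adjusted p = 0.0322 and 0.0291). Over the 12 fits that each left out 1 array, the Treg change ran from 0.40 to 0.65 and was called in 1. The lowest value was that without transgenic Treg array 1, the pool of 33 weeks. The Treg change was called in 4 of 26 alternatives. Within the 4 Treg arrays of consecutive provider codes, 2 per strain, it was 0.51 and was not called (limma adjusted p = 0.605).

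CD5 is an inhibitory receptor whose level follows the strength of receptor signalling in T cells. Cd5 (1418353_AT) read 12.69, 12.77 and 12.55 on C57BL/6 Treg arrays and 11.81, 12.12 and 12.44 on transgenic ones, all of them lower. The change of -0.54 (standard error 0.18) did not pass the test (limma adjusted p = 0.271). It was -0.76 within the 4 arrays of consecutive provider codes and -0.39 without transgenic Treg array 1, the pool of 33 weeks. In effector cells Cd5 read 11.10, 11.10 and 11.24 in C57BL/6 and 11.13, 11.70 and 11.27 in transgenic mice, with overlap and a change of 0.22 (limma adjusted p = 0.659). The strain change in Treg minus that in effector cells was -0.76, with a 95% interval of -1.32 to -0.21 and a limma adjusted p of 0.193. Across all 13 probe sets 0 were called for this difference, beside 2.26% of all tested, and 3 had an unadjusted p under 0.05 (Lat, Cd5 and Cd8b1 1426170_A_AT).

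The populations differed far more than the strains. In C57BL/6 mice 7 of 13 probe sets were called between fresh Treg and activated effector cells, 1 higher and 6 lower in Treg cells, beside 73.8% of all tested probe sets (31.7% higher and 42% lower). In transgenic mice 8 of 13 were called, 2 higher and 6 lower, beside 70% of all tested (30% higher and 40% lower). The shares of members called in either direction were thus below those of all tested probe sets, while the shares called lower were above them. No test of these shares was made. In C57BL/6 mice the arrays of both populations did not overlap in 8 of 13, with 2 higher and 6 lower in Treg cells, beside 76.7% of all tested (33% and 43.7%). In transgenic mice they did not overlap in 10, 3 higher and 7 lower, beside 73.9% (31.8% and 42%). The median difference of the 13 was -0.56 in each strain, where the median over all tested was -0.26 in C57BL/6 and -0.21 in transgenic mice. Population was confounded with culture, pooling of mice and provider code, which cannot be told apart from it. Quantile normalization over all 12 arrays moved the median of all tested probe sets to 0.017 and 0.072. It left 4 higher and 2 lower calls in C57BL/6 mice, beside 70% of all tested called in either direction. In transgenic mice it left 4 higher and 3 lower, beside 65.4%.

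**Figure D4:**
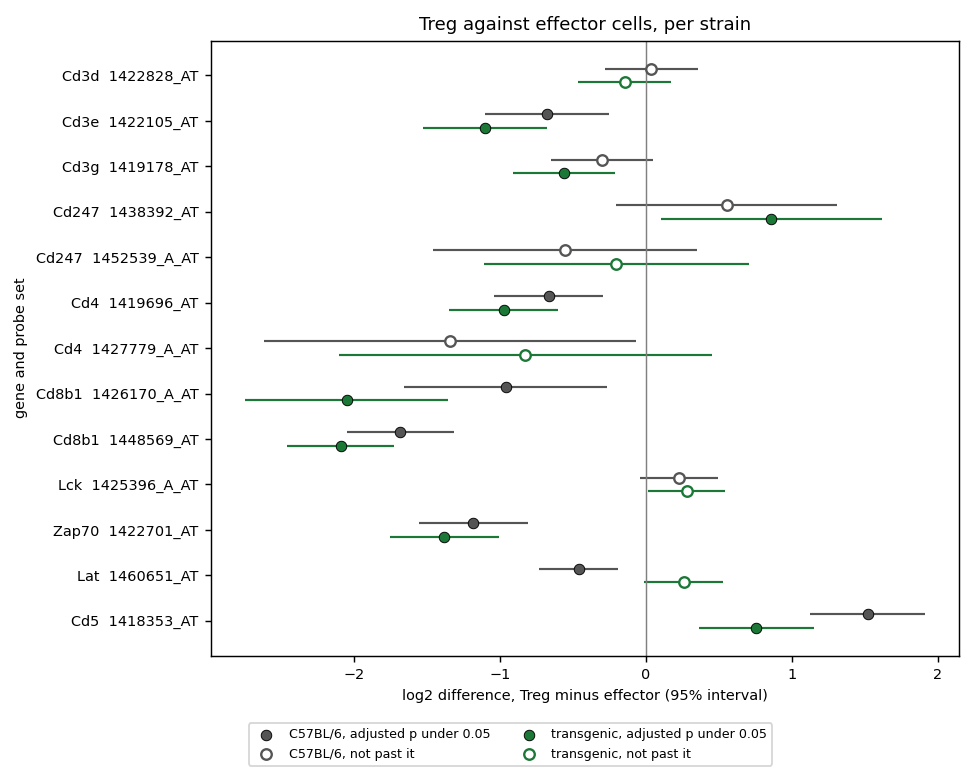
Difference between populations (x axis, log2, Treg minus effector) of the 13 tested probe sets (y axis) in C57BL/6 and transgenic mice, with limma 95% intervals and filled points where the adjusted p was under 0.05. Cd5 lies to the right at 1.52 and 0.76, Zap70 at -1.18 and -1.38, and both Cd8b1 probe sets lie to the left, at -0.96 to -2.09.

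Cd5 was higher, and Zap70 and Cd8b1 1448569_AT lower, in Treg cells of both strains. Its Treg arrays all lay above its effector arrays, by 1.52 (2.87-fold, limma adjusted p = 1.37e-05) in C57BL/6 and 0.76 (1.69-fold, limma adjusted p = 0.00279) in transgenic mice. Relative to the median of all tested probe sets these were 1.78 and 0.97. Zap70 differed by -1.18 (limma adjusted p = 6.78e-05) and -1.38 (limma adjusted p = 2.24e-05). Cd8b1 1448569_AT, at 10.54 to 10.83 on effector and 8.45 to 9.27 on Treg arrays, was lower by 3.21-fold in C57BL/6 and 4.25-fold in transgenic mice (limma adjusted p = 3.39e-06 and 6.47e-07). These 3 probe sets were called in the same direction in both strains under each of the 3 other normalizations. Cd8b1 1426170_A_AT was called lower in Treg cells too, at -0.96 and -2.05 (limma adjusted p = 0.0167 and 0.000131), but in C57BL/6 mice the call was lost with quantile normalization over all arrays (limma adjusted p = 0.0527) and without C57BL/6 effector array 3 (0.0745).

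Cd3e and Cd4 were called lower in Treg cells of both strains, with calls that depended on the scaling and, in C57BL/6 mice, a direction that did too. Cd3e 1422105_AT differed by -0.68 in C57BL/6 (limma adjusted p = 0.00776) and -1.10 in transgenic mice (limma adjusted p = 0.000342). Cd4 1419696_AT differed by -0.67 (limma adjusted p = 0.00399) and -0.97 (limma adjusted p = 0.000324). With quantile normalization over all arrays the differences were 0.045 and 0.051 in C57BL/6 mice and -0.46 (Cd3e) and -0.29 (Cd4) in transgenic mice, and none of the 4 values was called. Lat was called lower in Treg cells of C57BL/6 mice at -0.46 (limma adjusted p = 0.00514) and differed by 0.26 in transgenic mice (limma adjusted p = 0.0800), and under that normalization the values were 0.17 and 0.80, the second of them called. Cd3g was called lower in transgenic mice (-0.56, limma adjusted p = 0.00824) and differed by -0.30 in C57BL/6 mice (limma adjusted p = 0.110). These differences were not shown to be unequal (-0.26, limma adjusted p = 0.687), and under that normalization they were -0.018 and 0.32, neither called. Cd247 1438392_AT was called higher in Treg cells of transgenic mice (0.86, limma adjusted p = 0.0426), a call lost in 9 of 23 alternatives, and differed by 0.55 in C57BL/6 mice (limma adjusted p = 0.166, and 0.93 with an adjusted p of 0.0326 under that normalization). Here too the strains were not shown to differ (0.31, standard error 0.49, limma adjusted p = 0.845).

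Cd3d and Lck kept to narrow ranges across both populations. Cd3d spanned 13.48 to 14.05 on effector arrays and 13.42 to 13.92 on Treg arrays, with differences of 0.036 in C57BL/6 and -0.15 in transgenic mice. Under quantile normalization over all arrays these were 0.49, called higher in Treg cells (limma adjusted p = 0.00915), and 0.15, not called. Lck differed by 0.23 and 0.28 (limma adjusted p = 0.110 and 0.0586), with Treg arrays above effector arrays in both strains, and under the same normalization it was called higher in Treg cells, by 0.74 and 0.68. The wide probe sets gave no call in either strain. Cd4 1427779_A_AT differed by -1.34 and -0.83, and Cd247 1452539_A_AT by -0.56 and -0.20. With the actin covariate both were called lower in Treg cells, Cd4 1427779_A_AT at -1.07 and -1.09 and Cd247 1452539_A_AT at -0.36 and -0.39. The covariate was centred within each population, so this fit did not adjust for a gap in actin difference between populations. Whether such a gap adds to these values was not tested. In that fit Cd247 1438392_AT was called in neither strain (limma adjusted p = 0.157 and 0.0522). Under quantile normalization over all arrays Cd247 1452539_A_AT was at 0.093 and 0.42, neither called.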

How the data were processed

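The values are log2 intensities with 1 value per probe set and array, deposited by the authors and made with GCRMA per the submitters' processing notes. No version is named there, nor whether both populations were normalized together. Per the labels' protocols, RNA was amplified in 1 round by in vitro transcription, and the arrays of a group hold distinct biological replicates. Groups and replicate numbers follow the sample titles. The number of arrays limits the precision.

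Gene names of the 14 probe sets were given with the choice of members. The members and lists were chosen with earlier results of these data known. All 14 are described. The rule that named genes of like pattern, the lists of other genes and the sex-linked state of the arrays could not be used, since other probe sets carry no gene name here. The 64 control probe sets were not tested.

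The 12 arrays entered a single limma 3.58.1 fit (R 4.3.3) of 4 group means, whose empirical Bayes variance prior depends on mean expression, and p-values were adjusted by Benjamini-Hochberg over 18271 probe sets. It was tested on simulated data with independent noise for each probe set and array. That test cannot show how differences shared by the probe sets of an array act on the calls. Same-numbered strain pairs of Treg arrays had correlated deviations from their group means (0.58, 0.102 and 0.51, all above 0.1) and were taken as paired, which rests on the data since no label says so. Transgenic Treg array 2 correlated as well with C57BL/6 array 3 (0.114). Those of effector arrays (0.21, -0.34 and -0.34) were not. Alternatives were other normalizations, filters, variance models, blocks and covariates, and leaving out each array. Figures were drawn with matplotlib 3.10.9.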

Additional observations from a re-analysis of the deposited data

Results flagged for a closer look

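Lat 1460651_AT had strain differences of opposite sign in the populations, 0.53 in Treg cells (limma adjusted p = 0.0778) and -0.19 in effector cells (limma adjusted p = 0.530), and neither passed the test without pairing. Each transgenic Treg array lay above each C57BL/6 Treg array, and each transgenic effector array lay below each C57BL/6 effector array. The strain change in Treg minus that in effector cells was 0.72 on the log2 scale (standard error 0.17, limma adjusted p = 0.0606), so the test of the difference itself did not pass. Over the 24 alternatives the value ranged from 0.60 to 0.84 and the adjusted p from 0.00639 to 0.169, and it passed in 3 of them. Groups of 3 arrays are too small for the test of single outlying samples.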

How the results depend on the processing

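Of 1547 values of members under alternatives 1429 kept their direction and side of the threshold, 42 gained a call, 28 lost one and 48 changed sign. Members called between strains in Treg cells (0, beside 1.19% of all tested probe sets) became 1 with arrays centred on their medians (1.15%). They also became 1 with array weights (6.74%) and with the replicate block in Treg cells alone (1.94%). Without single arrays the count ranged from 0 to 1. In effector cells the 1 call (beside 2.99% of all tested) became 0 without a filter (0.77%) and without a variance trend (3%). With arrays of the contrast alone (1.22%), the replicate block (2.86%) and the array state (1.2%) it became 0 too. The count became 2 with the actin covariate (4.59%) and 5 with array weights (16.6%), and ranged from 0 to 1 without single arrays. For the difference between these changes 0 (beside 2.26%) became 3 with array weights (13.8%) and 1 with the replicate block in Treg cells alone (2.75%). Without single arrays that count ranged from 0 to 1. Population counts stayed within 1.5 times (without single arrays 6 to 9 for C57BL/6 and 7 to 10 for transgenic mice). The replicate block over all arrays changed the call of Cd4 1419696_AT in effector cells (adjusted p = 0.0577) and of Cd247 1438392_AT between populations in transgenic mice (0.0537). Same-numbered effector arrays were not paired. The alternative with sex-linked genes was not run, and arrays of the contrast alone were not run for the difference. The actin covariate, the array state and the replicate block in Treg cells alone were chosen after seeing the data.

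Signs turned as follows, and the cause was not tested. The strain change in Treg cells was -0.0053 for Cd3d with array weights and -0.058 with the provider codes as a block or within 4 arrays, where Cd8b1 1426170_A_AT was -0.16. With the actin covariate it was -0.054 for Cd3e, -0.054 for Cd247 1452539_A_AT and -0.18 for Cd8b1 1426170_A_AT, and with the array state -0.26 for Cd247 1438392_AT. In effector cells Cd247 1452539_A_AT was -0.023 with the actin covariate. With quantile normalization over all arrays the population difference in C57BL/6 mice was 0.045 for Cd3e, 0.32 for Cd3g, 0.093 for Cd247 1452539_A_AT, 0.051 for Cd4 1419696_AT and 0.17 for Lat, and in transgenic mice 0.15 for Cd3d and 0.42 for Cd247 1452539_A_AT. The difference of strain changes was -0.031 for Cd247 1452539_A_AT, -0.022 for Cd4 1427779_A_AT and -0.030 for Lck with the actin covariate, -0.042 for Cd4 1427779_A_AT with array weights, and -0.054 and -0.011 for Lck with quantile normalization over all arrays and within populations. Without single arrays the Treg strain change ran from -0.087 to 0.50 for Cd247 1438392_AT, -0.19 to 0.21 for Cd3e, -0.037 to 0.21 for Cd3d and -0.12 to 0.24 for Cd8b1 1426170_A_AT. The effector change ran from -0.27 to 0.10 for Cd247 1438392_AT, -0.31 to 0.49 for Cd247 1452539_A_AT and -0.15 to 0.97 for Cd4 1427779_A_AT. The population difference ran from -0.073 to 0.19 for Cd3d in C57BL/6 and -0.67 to 0.053 for Cd247 1452539_A_AT in transgenic mice. The difference of strain changes ran from -0.018 to 0.14 for Lck, -0.11 to 0.69 for Cd247 1452539_A_AT and -0.11 to 1.01 for Cd4 1427779_A_AT.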
